A study of Mus musculus with 4 samples.

Results

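The spindle assembly checkpoint was described here by 10 genes, chosen by name: Bub1, Bub1b, Bub3, Mad1l1, Mad2l1, Mad2l1bp, Ttk, Trip13, Spdl1 and Zw10. All 10 were found among the 53677 gene symbols of the count files, and all 10 were among the 17879 genes that passed the filter on low counts. RNA-seq was done on mouse oocytes of the germinal vesicle (GV) stage, in which meiosis is held in prophase and the nucleus is still intact. Females were given 7.5 IU of PMSG, a gonadotropin that drives follicle growth, and oocytes were collected 48 h later. The control group (Ctrl) and the group with a knockdown of Ell3 (Ell3 KD) had 2 libraries each, and each library pooled 5 oocytes. Ell3 encodes an RNA polymerase II elongation factor. Strain, age, the knockdown reagent and the treatment of the controls are not given in the sources used here. By the submitters' design text, the comparison addressed whether transcription has a part in an effect on meiosis.

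The checkpoint holds a cell in metaphase until every kinetochore, the protein platform on the centromere, is attached to spindle microtubules. At an unattached kinetochore the kinase TTK (MPS1) starts a cascade that recruits BUB1, BUB3 and BUBR1 (the product of Bub1b), and a MAD1-MAD2 template converts free MAD2 into the form that, with BUBR1 and BUB3, binds CDC20. This mitotic checkpoint complex keeps the anaphase-promoting complex from destroying securin and cyclin B. The ATPase TRIP13 and its adaptor p31comet (Mad2l1bp) take the complex apart, and ZW10 and Spindly (Spdl1) bring dynein, which strips checkpoint proteins from attached kinetochores. Oocytes are known for a checkpoint that tolerates some misaligned chromosomes, and fully grown GV oocytes make little new RNA and rely on stored transcripts for the coming divisions.

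The libraries summed to between 45131278 and 89632815 counts, and both Ell3 KD libraries were deeper than both Ctrl libraries. Markers of the oocyte (12 of 12 genes above 3 counts in every library) summed to 24309.5 and 23785.4 CPM in Ctrl and 23466.8 and 23383.4 CPM in Ell3 KD, where CPM are counts relative to a library's total on a common scale. Single oocyte markers moved in both directions, with 4 called higher and 4 lower by edgeR (42.9% of all genes tested were called). Their log2 fold changes ran from -0.27 (Nobox) to 0.49 (Dppa3). Markers of cumulus and granulosa cells (8 of 12 above 3 counts in every library) summed to 53.9 and 56.6 CPM in Ctrl and to 49.7 and 51.9 CPM in Ell3 KD. Of these, Amh, Foxl2 and Amhr2 were at 0 in Ctrl and under 0.2 CPM in Ell3 KD. Markers of theca and stroma (3 of 8) summed to 4.55 and 4.78 CPM in Ctrl and 4.48 and 4.73 CPM in Ell3 KD. Markers of blood cells (2 of 8) summed to 2.71 and 3.04 CPM in Ctrl and 1.37 and 1.21 CPM in Ell3 KD, with all 4 hemoglobin genes at 0. Single markers of these cells moved more than the sums. Inha was 2.23-fold higher in Ell3 KD (1.04 to 2.33 CPM; edgeR adjusted p = 3.63e-04) and Dcn 2.18-fold higher (0.859 to 1.88 CPM; edgeR adjusted p = 0.00122). Cd68 was 2.24-fold lower (2.64 to 1.18 CPM; edgeR adjusted p = 2.18e-04) and Nr5a2 1.18-fold lower (26.4 to 22.4 CPM; edgeR adjusted p = 0.00391). No other marker of these 3 lists was called, though many were too low to be tested. Those tested were 7 of 12 for cumulus and granulosa cells, 4 of 8 for theca and stroma and 1 of 8 for blood cells. The part of other cells in the results below was not tested. The targeted gene Ell3 was at 8.12 and 9.79 CPM in Ctrl and at 2.88 and 2.80 CPM in Ell3 KD, 3.15-fold lower (log2 fold change -1.66 ± 0.14 SE; edgeR adjusted p = 6.04e-10). Ell3 shares 65.6% of its exon length with Serinc4 on the same strand, and Serinc4 had 8 and 5 counts in Ctrl and 11 in each Ell3 KD library. How reads in shared exons were assigned is not given, so the size of the fall of Ell3 is less certain.

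Most checkpoint genes differed between the groups, and by little. In Ell3 KD, 6 of the 10 were higher (Mad2l1, Trip13, Mad2l1bp, Ttk, Bub3 and Spdl1), 2 were lower (Bub1b and Zw10), and Bub1 and Mad1l1 did not pass the test (edgeR's quasi-likelihood test, two-sided, Benjamini-Hochberg adjusted p under 0.05 over all genes tested). Of all genes tested, 42.9% were called, 21.1% higher and 21.8% lower. All 10 genes had a mean of at least 10 CPM, and among the 8121 genes at that level 54.7% were called, 29.2% higher and 25.5% lower. The median log2 fold change was 0.13 over the 10 genes, 0.01 over the genes at that level and -0.0024 over all genes tested. The median absolute log2 fold change of genes at 10 CPM or more was 0.15, and Trip13 had the largest of the 10 genes, at 0.38. Over the 10 genes, the 95% intervals of the fit reached no further than 1.47-fold. The groups did not overlap for 9 of the 10 genes, against 70.7% of all genes tested and 77.5% of those at 10 CPM or more. DESeq2 called 5 of the 10 higher and 2 lower, and 25.2% of the 22028 genes to which it gave an adjusted p, a wider set than the 17879 tested by edgeR. The labels do not say whether libraries came from separate animals, so p-values here reflect only how far these libraries differ from each other, and that spread may be technical. With 2 libraries a group, an exact two-sided permutation test of a single gene cannot give a p under 0.333. With an assumed coefficient of variation of 0.2 between libraries in place of the fitted 0.0421, edgeR called 0 of the 10 genes (11.0% of all genes, 4.82% higher and 6.17% lower), and the lowest adjusted p was that of Trip13 (adjusted p = 0.612). All values are relative to the other RNA of a library, so fewer transcripts of a gene and more of the rest cannot be told apart, nor can a change in total RNA per oocyte be seen.

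**Figure D1:**
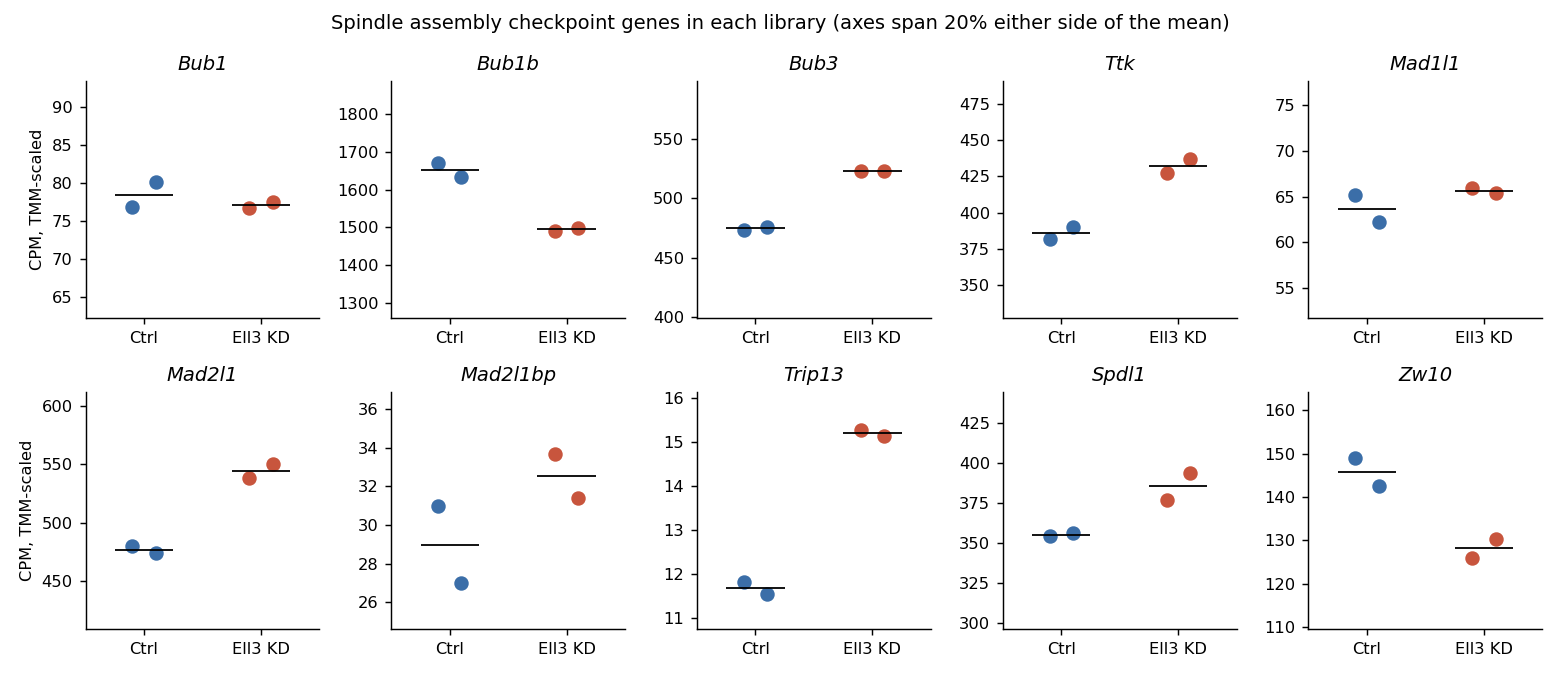
Level of each of the 10 checkpoint genes in CPM scaled by TMM factors (y axis, spanning 20% either side of the gene's mean) in the 2 Ctrl and the 2 Ell3 KD libraries (points; lines are group means). The groups are apart for 9 genes and overlap for Bub1, whose libraries all lie between 76.8 and 80.1 CPM.

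To set the members beside their genes, the 250 bases before the RefSeq start site (GRCm38.p6) are printed for 1 gene that rose and 1 that fell in each of 2 roles: Ttk and Bub1b for the signal, Spdl1 and Zw10 for the link to dynein. They are written 5′ to 3′ on the gene's strand. Capitals mark 3 motifs known from promoters of cell cycle genes, searched on both strands: the CHR (TTTGAA), the CCAAT box (CCAAT) and an E2F site (GCGGGAA). The windows are chr2:118597961-118598210 (plus strand) for Bub1b, chr9:83834439-83834688 (plus) for Ttk, chr11:34833642-34833891 (minus) for Spdl1 and chr9:49055331-49055580 (plus) for Zw10.
Bub1b: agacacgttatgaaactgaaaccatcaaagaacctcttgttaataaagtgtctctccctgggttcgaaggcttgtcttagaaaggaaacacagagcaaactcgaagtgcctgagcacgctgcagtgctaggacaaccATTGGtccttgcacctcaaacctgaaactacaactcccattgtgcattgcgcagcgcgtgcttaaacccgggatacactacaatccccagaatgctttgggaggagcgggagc
Ttk: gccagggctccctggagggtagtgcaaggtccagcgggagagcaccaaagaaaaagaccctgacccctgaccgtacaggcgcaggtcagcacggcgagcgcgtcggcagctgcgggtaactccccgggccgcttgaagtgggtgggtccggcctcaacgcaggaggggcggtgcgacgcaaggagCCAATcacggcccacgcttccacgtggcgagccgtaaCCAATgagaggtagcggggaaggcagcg
Spdl1: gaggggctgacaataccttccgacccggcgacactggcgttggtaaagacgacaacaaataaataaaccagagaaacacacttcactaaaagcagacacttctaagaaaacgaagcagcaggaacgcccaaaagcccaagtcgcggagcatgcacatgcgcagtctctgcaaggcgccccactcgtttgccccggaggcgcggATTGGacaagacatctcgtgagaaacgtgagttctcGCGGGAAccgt
Zw10: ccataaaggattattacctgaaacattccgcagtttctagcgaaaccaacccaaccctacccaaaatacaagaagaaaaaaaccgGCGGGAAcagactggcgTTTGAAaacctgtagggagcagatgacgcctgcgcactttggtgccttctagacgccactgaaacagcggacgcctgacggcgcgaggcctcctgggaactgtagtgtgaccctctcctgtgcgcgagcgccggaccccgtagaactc
All 10 genes matched the RefSeq table by symbol, with 12 windows, since Bub3 and Mad1l1 have 2 starts each. A CCAAT box was in 6 of the 12 windows, from 5 of the 10 genes (Bub1, Bub1b, Bub3, Ttk and Spdl1), and in 33.8% of 32851 windows of all genes. The CHR letters were in 3 of 12 windows (from 2 genes, Bub3 and Zw10) against 16.0% of all windows. The E2F letters were in 2 of 12 (Spdl1 and Zw10) against 3.82%. The windows of Bub3 overlap and hold the same matches. Of the 5 genes with a CCAAT box, 3 rose, 1 fell and 1 was not called, so these letters did not separate the genes by direction. Matches are descriptions of these windows and not evidence of binding.

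Among the kinases and their partner, Ttk and Bub3 rose, Bub1b fell and Bub1 did not pass the test. Ttk, which encodes the kinase that starts the signal, was at 382.1 and 389.8 CPM in Ctrl and at 427.1 and 436.8 CPM in Ell3 KD. Both Ell3 KD libraries were above both Ctrl libraries, and the rise was 11.9% (95% interval 7.10% to 16.9%; log2 fold change 0.16 ± 0.03 SE; edgeR adjusted p = 1.35e-04). Bub3, which encodes the WD40-repeat adaptor that carries BUB1 and BUBR1 to the kinetochore, was at 473.0 and 476.0 CPM in Ctrl and at 523.0 CPM in each Ell3 KD library. It rose by 10.2% (95% interval 5.69% to 15.0%; edgeR adjusted p = 3.94e-04), with no overlap between the groups. Bub1b, the most abundant of the 10 by counts, was at 1671 and 1633 CPM in Ctrl and at 1491 and 1498 CPM in Ell3 KD. BUBR1 is both a subunit of the mitotic checkpoint complex and a stabilizer of attachments. Both Ell3 KD libraries were below both Ctrl libraries, and the fall was a log2 fold change of -0.14 ± 0.03 SE (edgeR adjusted p = 8.30e-05), a change of -9.55% with a 95% interval of -12.9% to -6.09%. With the trend of each library on transcript length and GC content removed, the fall of Bub1b was smaller, at -0.08 on the log2 scale (edgeR adjusted p = 0.00634). Bub1, which encodes the kinase that marks the inner centromere through histone H2A, was at 76.9 and 80.1 CPM in Ctrl and at 76.8 and 77.6 CPM in Ell3 KD. The groups overlapped, and the interval of the difference ran from -7.57% to 4.53% (edgeR adjusted p = 0.678).

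In the MAD1-MAD2 template, Mad2l1 rose and Mad1l1 did not pass the test. Mad2l1 encodes MAD2, the HORMA domain protein that is converted from an open to a closed form around CDC20. It was at 479.4 and 473.8 CPM in Ctrl and at 538.7 and 550.1 CPM in Ell3 KD. The groups did not overlap, and the rise was 14.2% (95% interval 9.47% to 19.2%; log2 fold change 0.19 ± 0.03 SE; edgeR adjusted p = 1.08e-05). Mad1l1 encodes MAD1, the coiled-coil protein that anchors MAD2 at the kinetochore. It was at 65.1 and 62.2 CPM in Ctrl and at 66.0 and 65.3 CPM in Ell3 KD. The groups did not overlap but nearly touched, and the interval of the difference ran from -3.36% to 10.1% (edgeR adjusted p = 0.458). With the trend on length and GC content removed, Mad1l1 had a log2 fold change of 0.10 and passed the threshold narrowly (edgeR adjusted p = 0.0496).

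The genes that take the complex apart were both higher, 1 of them only under some settings. Trip13, which encodes the AAA+ ATPase that opens closed MAD2, had the largest change and the lowest level of the 10. It had 540 and 570 counts (Ctrl) and 1354 and 979 counts (Ell3 KD), or 11.8 and 11.5 CPM against 15.3 and 15.1 CPM. The groups did not overlap, and Trip13 rose by 30.3% (95% interval 15.4% to 47.0%; log2 fold change 0.38 ± 0.08 SE; edgeR adjusted p = 7.00e-04). Of genes at 10 CPM or more, 89.7% had a smaller absolute change. Mad2l1bp, which encodes the adaptor p31comet that hands MAD2 to TRIP13, was at 31.0 and 27.0 CPM in Ctrl and at 33.7 and 31.4 CPM in Ell3 KD. The groups did not overlap, though the nearest libraries were at 31.0 and 31.4 CPM, and the rise was 12.6% (95% interval 2.49% to 23.7%; edgeR adjusted p = 0.0383). This call was lost without Ctrl replicate 2 (log2 fold change 0.07, edgeR adjusted p = 0.481), without Ell3 KD replicate 1 (0.12, edgeR adjusted p = 0.283), with all libraries thinned to the depth of the shallowest (0.15, edgeR adjusted p = 0.0910), by DESeq2 (0.17, adjusted p = 0.144), with library totals alone (0.13, edgeR adjusted p = 0.112) and with the trend on length and GC content removed, without (0.09, edgeR adjusted p = 0.281) or with a replicate block (0.09, edgeR adjusted p = 0.228). Without Ctrl replicate 1 the log2 fold change was 0.27.

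The genes of the link to dynein went apart, Spdl1 up and Zw10 down. Spdl1 encodes Spindly, a dynein adaptor at the outer kinetochore. It was at 354.5 and 356.0 CPM in Ctrl and at 376.8 and 393.9 CPM in Ell3 KD. The rise of 8.46% (95% interval 3.64% to 13.5%; edgeR adjusted p = 0.00423) was the smallest of the 8 called, and without Ell3 KD replicate 2, the higher library, Spdl1 was not called (log2 fold change 0.09, edgeR adjusted p = 0.104). With library totals alone its log2 fold change was 0.08. Zw10 encodes a subunit of the RZZ complex, which receives Spindly at the kinetochore and also acts in membrane traffic. It was at 148.9 and 142.5 CPM in Ctrl and at 126.0 and 130.2 CPM in Ell3 KD. The groups did not overlap, and Zw10 fell, by a log2 fold change of -0.19 ± 0.04 SE (edgeR adjusted p = 2.92e-04), a change of -12.1% with a 95% interval of -16.7% to -7.21%. The other RZZ genes, singled out after their values were seen, were Zwilch, which also fell (35.1 to 30.5 CPM; log2 fold change -0.21 ± 0.06 SE; edgeR adjusted p = 0.00587), and Kntc1, which encodes ROD and was not called (23.5 and 22.8 CPM; edgeR adjusted p = 0.627). Zwilch shares 5.93% of its exon length with Lctl on the opposite strand.

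**Figure D2:**
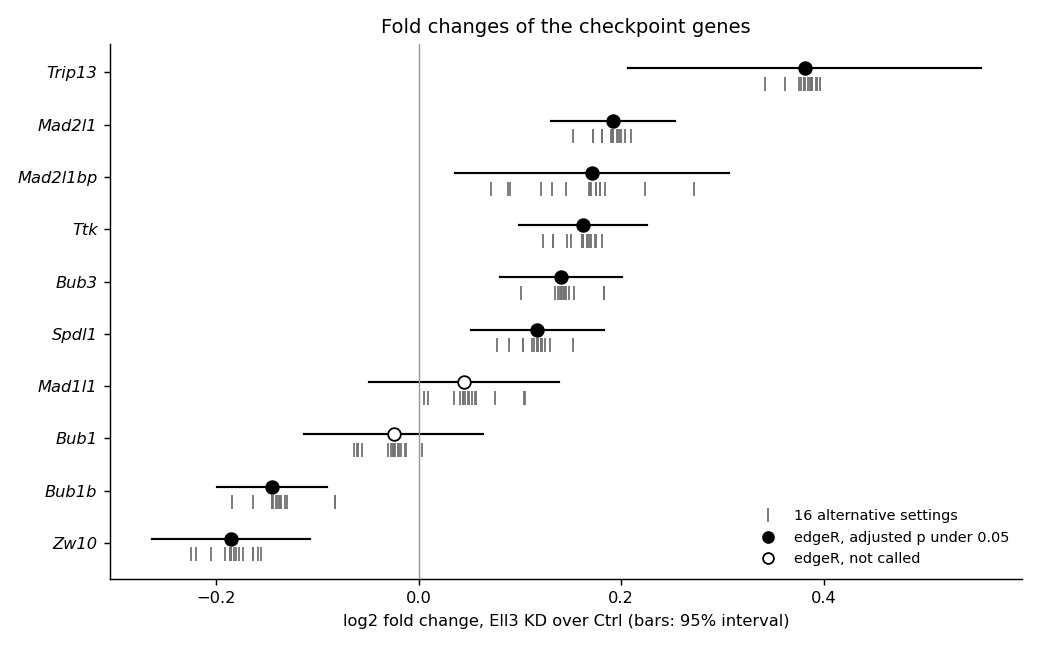
Log2 fold change of each checkpoint gene in Ell3 KD over Ctrl (x axis; circles, filled where called by edgeR, with 95% intervals) and the same value under 16 alternative settings (ticks). Trip13 lies highest at 0.38, the ticks of Mad2l1bp run from 0.07 to 0.27, and those of Bub1b and Zw10 all lie below 0.

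Overlapping genes and close copies were searched for each member. On GRCm38, the assembly that mm10 names, Bub1b lies on chromosome 2 from 118598211 to 118641591 (plus strand) and Bub1 on the same chromosome from 127801122 to 127831865 (minus). Mad2l1 lies on chromosome 6 from 66535390 to 66547220 (plus), Trip13 on chromosome 13 from 73911347 to 73937784 (minus), and Ttk and Zw10 both on the plus strand of chromosome 9, from 83834689 to 83872389 and from 49055613 to 49078775. All 10 are annotated as protein coding, with between 1 (Mad2l1bp) and 7 (Bub3) transcripts. In GENCODE M21 an exon of another gene overlaps the exons of Mad1l1 alone, where the antisense gene Gm16121 shares 1.01% of the exon length and had 1, 1, 0 and 0 counts. Transcripts of other genes matched at 90% identity or more over at least 150 bases for Bub3 and Mad2l1. Of those with counts, Gm9540, a match to Bub3, had at most 17 counts in a library, and Gm42430, a match to Mad2l1, had at most 2 counts. The matches AC122746.1 (to Bub3) and AC139157.1 (to Mad2l1) are not among the gene symbols counted. Bub3 and Mad2l1 had 21612 counts or more in every library. How reads with several matches were treated is not given, so an effect of the copies on these counts could not be tested.

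Counts of different genes can be compared only per transcript length, so levels were also put on the TPM scale, in which counts are divided by transcript length before libraries are scaled, using the longest annotated transcript. On it, Bub1b stood above the others, at 1059 and 1036 TPM in Ctrl and 894.8 and 898.0 TPM in Ell3 KD, which was the 99.3rd percentile of genes tested. Spdl1 (329.7 TPM as the Ctrl mean), Ttk (312.6), Bub3 (274.8), Mad2l1 (146.7) and Zw10 (118.3) followed in this order. Mad1l1 (56.1), Bub1 (53.4) and Mad2l1bp (53.0) lay close together, and Trip13 was lowest at 8.08 and 7.91 TPM. Among neighbours in this order, Bub1 and Mad2l1bp overlapped between Ctrl libraries. Mad2l1bp (56.6 and 49.3 TPM) also overlapped with Mad1l1 (57.3 and 54.9 TPM) there, so its place in Ctrl is not settled. In Ell3 KD, Spdl1 overlapped with Ttk and Mad2l1bp with Mad1l1, and Mad2l1bp moved from the ninth place to the seventh. Bub1b was at 3.18 times the level of Spdl1 in Ctrl and 2.65 times in Ell3 KD, and at 131.1 and 91.0 times that of Trip13. The order rests on the transcript length used. With the mean length of all annotated transcripts, Bub3 came before Ttk and Bub1 before Mad1l1, and Mad2l1, whose longest transcript has 7557 bases, was at 238.3 TPM. TPM also scales a library by the lengths of all its transcripts and, unlike CPM here, uses no TMM factors. Together these put all 10 genes and the median of all genes tested 0.08 lower (log2, Ell3 KD over Ctrl) than CPM did. Leaving out TMM factors alone, with library totals, shifted the median of all genes by -0.039 and gave Mad1l1 a log2 fold change of 0.0051. The direction of Mad1l1 differed between these scales, at 0.04 on CPM and -0.04 on TPM, and that of the other 9 genes was the same.

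**Figure D3:**
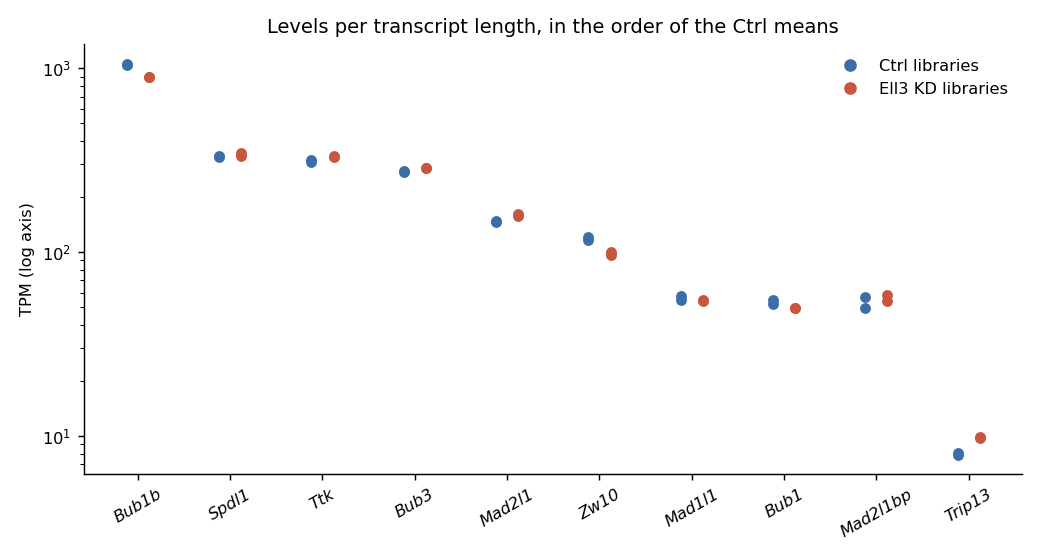
Level per transcript length of the 10 checkpoint genes in TPM (y axis, log scale) in each Ctrl and Ell3 KD library (points), ordered by the Ctrl mean. Bub1b lies at 894.8 TPM or more in all 4 libraries, and Trip13 at 9.90 TPM or less.

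Ratios between 2 genes within a library do not depend on how libraries are scaled. They do carry any trend of a library on transcript length and GC content, which was not removed from them. With that trend removed, Bub1b and Bub1 lay closer in log2 fold change (-0.08 and -0.06, against -0.14 and -0.02). Mad2l1 (0.17, against 0.19), Ttk (0.13, against 0.16) and, slightly, Bub3 (0.18, against 0.14) also lay closer to Bub1b. Spdl1 and Zw10 lay closer too (0.10 and -0.16, against 0.12 and -0.19), as did Mad2l1 and Mad1l1 (0.17 and 0.10, against 0.19 and 0.04). Mad2l1 and Trip13 lay slightly further apart (0.17 and 0.39, against 0.19 and 0.38). Mad2l1 and Mad2l1bp also lay further apart (0.17 and 0.09, against 0.19 and 0.17). The pairs below were chosen after the values of the genes were seen, and their differences follow from the changes above. The ratio of Mad2l1 to Bub1b, both parts of the mitotic checkpoint complex, was 0.139 and 0.141 in Ctrl and 0.175 and 0.178 in Ell3 KD, per length. That of Bub3 to Bub1b was 0.259 and 0.266 in Ctrl and 0.321 and 0.319 in Ell3 KD. Mad2l1 and Bub3 thus stood at 1.26 and 1.22 times their Ctrl ratio to Bub1b. The ratio of Ttk to Bub1b was 1.24 times its Ctrl value, and that of Spdl1 to Zw10 was 2.72 and 2.86 in Ctrl and 3.42 and 3.46 in Ell3 KD, 1.23 times. Within the template, the ratio of Mad2l1 to Mad1l1 was 2.57 and 2.66 in Ctrl and 2.85 and 2.94 in Ell3 KD. MAD2 against its disassembly factors gave 18.2 and 18.5 in Ctrl and 15.9 and 16.3 in Ell3 KD for Mad2l1 to Trip13. For Mad2l1 to Mad2l1bp the groups overlapped, with 2.61 and 2.96 in Ctrl and 2.69 and 2.95 in Ell3 KD. The ratio of the paralogs Bub1b to Bub1 was 20.3 and 19.0 in Ctrl and 18.1 and 18.0 in Ell3 KD. Together the 10 genes held 0.374% and 0.370% of all counts in the Ctrl libraries and 0.363% and 0.366% in the Ell3 KD libraries. Bub1b alone made up 45.2% and 44.7% of that in Ctrl, against 40.6% and 40.3% in Ell3 KD.

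**Figure D4:**
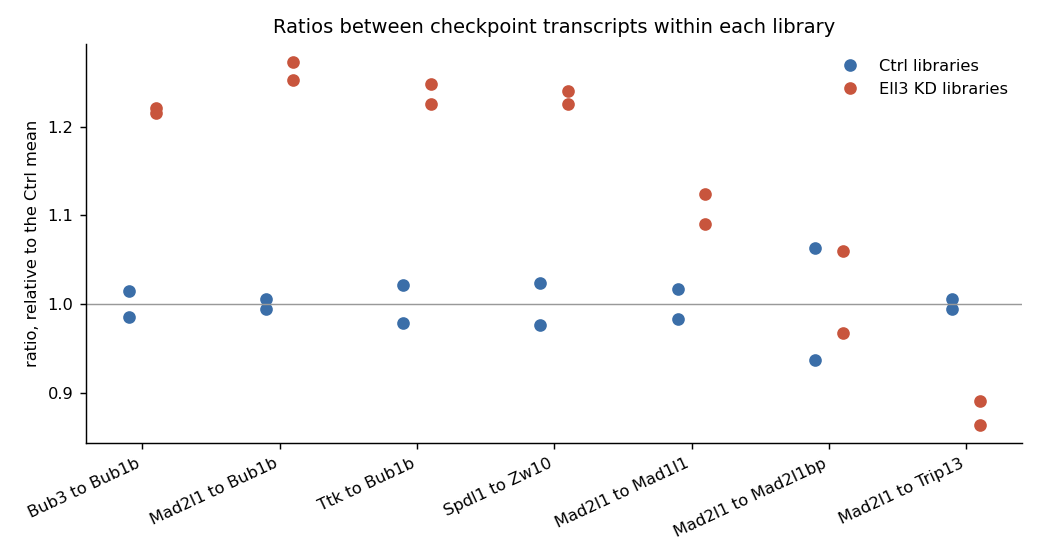
Ratios between 2 checkpoint genes within each library, per transcript length, divided by the mean ratio of the Ctrl libraries (y axis; points are libraries). The ratios of Mad2l1, Bub3 and Ttk to Bub1b and of Spdl1 to Zw10 average between 1.22 and 1.26 in Ell3 KD, and that of Mad2l1 to Mad2l1bp overlaps between groups.

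The genes around the checkpoint were taken from 6 lists with 84 genes, all of them tested. Of these, 30 were higher and 10 lower, or 47.6% called, with a median log2 fold change of 0.04. That share lay between the 42.9% of all genes tested and the 54.7% of genes at 10 CPM or more (29.2% higher and 25.5% lower). On the kinetochore platform, where checkpoint proteins load, 8 of 15 genes were higher and 1 lower (median 0.09). Its gene with the highest CPM, not corrected for transcript length, was Cenpf, at 610.3 ± 3.83 CPM in Ctrl and 649.0 ± 23.1 CPM in Ell3 KD (SD, n = 2 per group, as in what follows). Cenpf rose (log2 fold change 0.09; edgeR adjusted p = 0.0206) but was not called without Ell3 KD replicate 2 (0.06, edgeR adjusted p = 0.297), without Ctrl replicate 1 (edgeR adjusted p = 0.0504) or with library totals alone (0.05, edgeR adjusted p = 0.188). Zwint, which encodes a partner of KNL1 that receives the RZZ complex, rose from 73.4 ± 2.25 to 86.6 ± 0.881 CPM (log2 fold change 0.24 ± 0.04 SE; edgeR adjusted p = 7.32e-05). Spc25, Cenpe and Dsn1 rose by 0.19, 0.16 and 0.13 on the log2 scale. The scaffold gene Knl1, singled out after its value was seen, was at 56.0 and 55.5 CPM (edgeR adjusted p = 0.846). Only Zwilch was called lower on this list, and without Ctrl replicate 1 or without Ell3 KD replicate 1 none was.

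Among 9 genes of error correction, which releases wrong attachments, 2 were higher and 2 lower (median 0.05). Plk1, a kinase gene, fell from 1318 ± 5.21 to 1144 ± 19.8 CPM (log2 fold change -0.21 ± 0.03 SE; edgeR adjusted p = 1.14e-06), and 7.09% of its exons overlap an opposite-strand gene. Birc5, which encodes survivin of the chromosomal passenger complex, rose by 0.21, and the cohesin protector gene Sgo2a by 0.27 on the log2 scale. Of the exon length of Sgo2a, 35.0% lies opposite Kctd18, and Kctd18 had between 382 and 712 counts a library. Haspin, the kinase gene that marks histone H3 at centromeres, was lower by a log2 difference of -0.11 (edgeR adjusted p = 0.0369), and this call was lost under 9 of 16 alternatives, among them DESeq2 (adjusted p = 0.129), no filter on low counts (edgeR adjusted p = 0.0608) and the fits without Ctrl replicate 2 (-0.08, edgeR adjusted p = 0.196) or Ell3 KD replicate 1 (-0.06, edgeR adjusted p = 0.437).

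The target of the checkpoint, the anaphase-promoting complex with its activators, E2 enzymes and substrates, had 12 of 24 genes higher and 3 lower (median 0.11). Securin (Pttg1), which had the highest CPM of the list, was at 9183 ± 143.5 and 9870 ± 150.1 CPM and rose by 0.10 on the log2 scale, 0.03 and not called once the trend on length and GC content was removed (edgeR adjusted p = 0.172). Ube2s, which encodes the E2 enzyme that extends ubiquitin chains, rose by 0.29 ± 0.03 SE, and the subunit gene Cdc27 by 0.27 ± 0.03 SE. The subunit gene Anapc5 fell, with a log2 fold change of -0.37 ± 0.03 SE (edgeR adjusted p = 4.50e-09), and so did the activator gene Fzr1, with -0.38 ± 0.04 SE (edgeR adjusted p = 4.47e-09). Cdc20, which encodes the activator bound within the mitotic checkpoint complex, was singled out after its value was seen. It was at 187.9 ± 0.728 and 166.3 ± 3.00 CPM, and so lower in Ell3 KD (-0.18 ± 0.04 SE on the log2 scale; edgeR adjusted p = 2.21e-04).

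The list for checkpoint silencing held 15 genes, of phosphatases and of the chaperonin that folds checkpoint proteins, and also Usp44 and Cuedc2, which belong to neither. Of these, 2 were higher and 3 lower (median 0.0034). The catalytic subunit gene Ppp2ca of PP2A had the largest change, from 31.6 ± 0.122 to 61.1 ± 3.93 CPM (log2 fold change 0.95 ± 0.05 SE; edgeR adjusted p = 4.29e-13), and 41.3% of its exons overlap opposite-strand genes, of which the main one, 9430098F02Rik, had 0 counts in every library. How reads in shared exons were assigned is not given, and an effect of this overlap on the counts of Ppp2ca was not tested. The PP2A regulatory subunit gene Ppp2r5a, the PP1 gene Ppp1cc and the chaperonin gene Cct4 fell, with log2 fold changes of -0.49, -0.38 and -0.46. The longest transcript of Ppp2r5a matches transcripts of other genes over more than 300 bases, so its counts are less certain. One match, to Xdh, spans 1164 bases in reverse orientation. Xdh fell too, with 194 and 154 counts (Ell3 KD) against 2261 and 2474 (Ctrl). Most other matches that were counted had more counts in the deeper Ell3 KD libraries. An effect of these matches on the fall of Ppp2r5a was not tested. Cct5 was not called, with 764.2 ± 14.5 CPM in Ctrl and 784.3 ± 26.6 CPM in Ell3 KD (edgeR adjusted p = 0.335). Of 18 genes of dynein, dynactin and their adaptors, 5 were higher and 1 lower (median 0.02), with rises of the light chain genes Dynll1 (0.41), Dynlrb1 (0.27) and Dynll2 (0.21) and a fall of the light intermediate chain gene Dync1li1 (-0.56). The others called higher, singled out after their values were seen, were Nde1 (0.21) and Dync1i1, whose log2 fold change of 1.29 came at a Ctrl mean of only 0.334 CPM. Of 3 genes related to Mad2l1 by the HORMA domain, the meiotic axis gene Hormad1 rose by 0.63 ± 0.05 SE (edgeR adjusted p = 1.01e-09), while Mad2l2, at 72.9 and 71.7 CPM, and Hormad2 were not called. Transcripts of Anapc5, Cdc20, Cenpe, Haspin, Hormad1, Plk1, Ppp1cc, Ube2s and Zwint match those of other genes at 90% identity or more, so their counts are less certain; for Hormad1 the copy Gm15529 had counts of 29 and 40 (Ctrl) and of 125 and 99 (Ell3 KD).

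**Figure D5:**
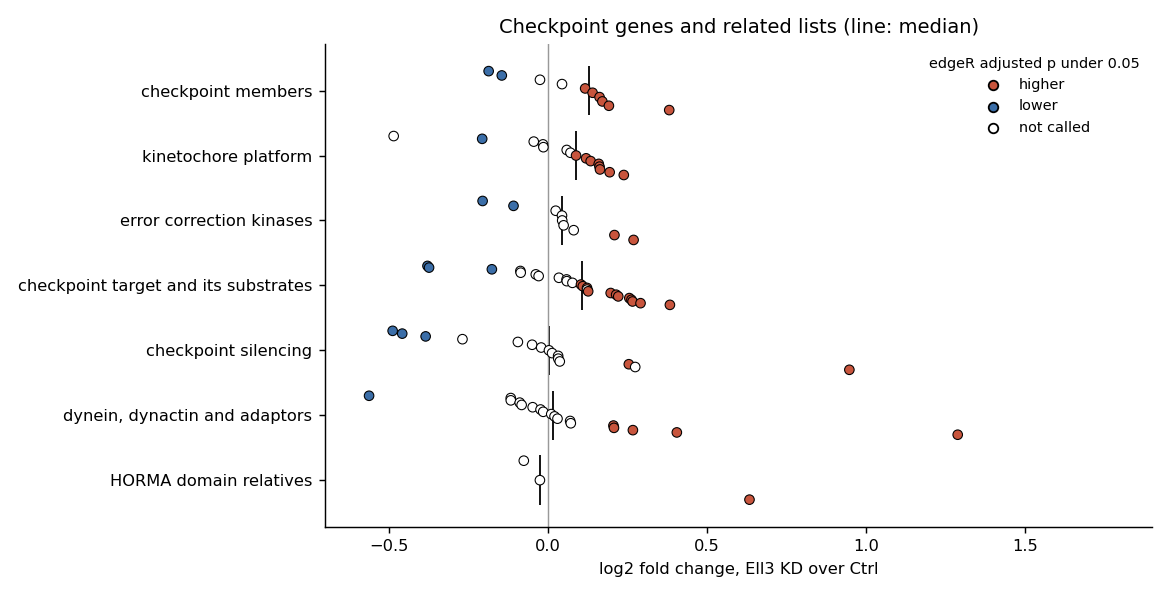
Log2 fold change in Ell3 KD over Ctrl (x axis) of the 10 checkpoint genes and of the genes of 6 related lists (rows; each point is a gene, colored by the edgeR call, and lines are medians). The checkpoint genes lie between -0.19 and 0.38, and the medians of the lists run from -0.03 to 0.13.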

How the data were processed

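The data were gene counts of 4 Smart-seq2 libraries of mouse GV oocytes, made with 16 PCR cycles and read at 150 bp from both ends, per the labels' protocols. The deposited values are raw counts per gene symbol. FastQC 0.11.5, HISAT2 2.2.1.0, featureCounts and build mm10 are named in the submitters' processing notes. The annotation, the strand setting and the treatment of reads with several matches are not given in the sources used here. Groups and replicate numbers came from the sample titles. The members, gene lists and tests were chosen with earlier results of these data known.

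The test across genes used edgeR 4.0.16 under R 4.3.3 (filterByExpr, TMM factors from 0.984 to 1.02, estimateDisp, glmQLFit, glmQLFTest) without covariates, and p-values were adjusted over the 17879 genes tested. Standard errors are the log2 fold change over the square root of F, and 95% intervals use the t quantile. CPM were scaled by TMM factors. Alternatives were DESeq2 1.42.0, limma 3.58.1 (voom), other scalings and filters, an assumed coefficient of variation, thinned counts, a loess offset on length and GC content, a replicate block and leaving out each library. The edgeR fit was tested on simulated data. Gene models came from GENCODE M21, which matched 96.8% of genes tested, and close copies were searched with BLAST 2.17.0. Named genes were the members, Ell3 and, per related list, the top gene by mean CPM, then at most 4 called genes by smallest p. A count of 0 in the shallowest library allows up to 0.0665 CPM, taking 3 counts as the limit, for counting error only. PCR copies were not marked by molecular identifiers, so counts are not numbers of molecules.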

Additional observations from a re-analysis of the deposited data

How the results depend on the processing

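Besides the values above, the fitted spread decided most calls. With the assumed coefficient of variation of 0.2, edgeR called 861 genes higher and 1103 lower in place of 3770 and 3906. It then called 0 checkpoint genes either way, 1 gene higher on the silencing list and 1 on the dynein list, and 0 in every other list and direction that had calls. Ell3 kept its call under all 16 alternatives, with log2 fold changes from -1.79 to -1.52. Of the checkpoint genes, 5 or 6 were higher and 2 lower under the other 15 alternatives, including each omitted library. Genes lower on the kinetochore platform numbered 2 with library totals alone, with no filter and under the replicate block, and 0 to 2 when a library was left out. On the error correction list 4 were higher and 1 lower with the length and GC offset, with or without the replicate block. There 1 was lower by DESeq2, with no filter, with thinned counts and with upper-quartile factors, and 1 to 2 when a library was left out. With library totals alone, 5 genes of the target list and 2 of the dynein list were lower. The length and GC offset, with or without the replicate block, gave 4 higher on the silencing list and 2 lower on the dynein list. The replicate block alone gave 2 lower there, and leaving out a library gave 1 to 2. The cause was not tested. With the replicate block, 3894 genes were higher and 3987 lower, and the checkpoint calls stayed at 6 and 2. Deviations of same-numbered libraries correlated at only 0.0393 over 9704 genes at 5 CPM or more, and nothing in the labels ties the numbers together. Fits that leave 1 library in a group assume that it varies like the other group. By mean transcript length the Ctrl levels were 1748 (Bub1b), 347.1 (Spdl1), 331.1 (Bub3), 276.8 (Ttk), 238.3 (Mad2l1), 99.4 (Zw10), 88.7 (Bub1), 65.4 (Mad1l1), 31.9 (Mad2l1bp) and 9.34 (Trip13) TPM. Precision is limited by 2 libraries a group and, for the genes with the lowest counts, also by depth. The SE of the log2 fold change was 0.03 for Bub1b, 0.07 for Mad2l1bp and 0.08 for Trip13, whose lowest count was 540.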
